A study of Mus musculus with 32 samples.

Results

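The 10 genes described here encode the main enzymes that remove superoxide and peroxides in mouse cells: the superoxide dismutases Sod1, Sod2 and Sod3, catalase (Cat), the glutathione peroxidases Gpx1, Gpx3 and Gpx4, and the peroxiredoxins Prdx1, Prdx3 and Prdx5. They were taken by symbol from a table of RNA-Seq counts for 32544 genes. The rule that takes them uses no measured value, but the 10 genes were chosen with earlier results of these data known. The table holds 1 kidney cortex library from each of 32 mice that were 25 weeks old and on the C57BL/6J background, with 4 mice in each of 8 groups. All mice carried the Col4a3tm1Dec allele, a constitutive null allele of the gene for a collagen IV chain of the glomerular basement membrane. The control groups were Col4a3+/- heterozygotes, which keep 1 working copy, so no group was free of the allele, and the Alport groups were Col4a3-/- mice, a model of Alport syndrome, an inherited and progressive kidney disease. Within each sex and genotype, 1 group received vehicle and 1 received nicotinamide riboside (NR), a precursor of NAD+, in the diet.

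Superoxide is made mainly as a by-product of mitochondrial respiration and on purpose by NADPH oxidases. Superoxide dismutases turn it into hydrogen peroxide, which catalase breaks down in peroxisomes, glutathione peroxidases reduce at the cost of glutathione, and peroxiredoxins reduce at the cost of thioredoxin. The kidney cortex consists largely of proximal tubules, whose cells are rich in mitochondria and peroxisomes and are also the main source of the glutathione peroxidase found in plasma, the product of Gpx3. These statements are background and were not tested in the data.

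The genes are spread over 9 chromosomes of the mouse assembly GRCm38 (GENCODE M21 annotation). Sod1, the copper-zinc enzyme of the cytosol, lies at chr16:90220754-90226329. Sod2, the manganese enzyme of the mitochondrial matrix, lies at chr17:13006846-13040063, and Sod3, the secreted copper-zinc enzyme, at chr5:52363791-52371418. Cat lies at chr2:103453849-103485160. Gpx1, the general intracellular glutathione peroxidase, lies at chr9:108338903-108340343, Gpx3 at chr11:54902453-54910377, and Gpx4, which reduces lipid hydroperoxides in membranes, at chr10:80047166-80056439. Prdx1, the abundant cytosolic peroxiredoxin, lies at chr4:116685544-116700822. Prdx3, which is mitochondrial, and Prdx5, found in mitochondria, peroxisomes and cytosol, share chromosome 19, at chr19:60864051-60874556 and chr19:6906697-6910106. The annotation places 650 bases of Sod1 over Scaf4 and 409 bases of Prdx5 over Trmt112, each on the opposite strand, and the strand setting of the counting is not given in the sources used here, so reads from these overlaps could have been counted for either gene.

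The 3 glutathione peroxidases among the 10 genes are selenoproteins, in which an in-frame TGA codon is read as selenocysteine rather than as a stop. The coding sequences around that codon are shown because their translation needs selenocysteine, and the coding sequences of the other 7 genes hold 0 in-frame TGA codons. The TGA is in capitals, with the flanking coding bases of GENCODE M21 in lower case, 5′ to 3′.
Gpx1 codon: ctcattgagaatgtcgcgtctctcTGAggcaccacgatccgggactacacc
Gpx3 codon: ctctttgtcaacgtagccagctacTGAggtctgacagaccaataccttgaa
Gpx4 codon: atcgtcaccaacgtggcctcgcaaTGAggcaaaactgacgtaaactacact
The codon is number 47 of 201 in Gpx1, at chr9:108339451-108339453, and number 73 of 226 in Gpx3, at chr11:54907256-54907258. In the longest annotated coding sequence of Gpx4 it is number 129 of 253, at chr10:80054737-80054739.

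All 10 genes passed the filter on low counts in every comparison, with between 2396 and 784787 counts per gene and mouse. Levels below are CPM, each gene's counts as a share of the library's total after scaling with TMM factors, which set mice side by side for 1 gene but not genes side by side. Per kilobase of annotated exon, Gpx3 was the most abundant of the 10 in the 8 vehicle-treated control mice, with a median of 16301 CPM per kb, followed by Gpx1 with 982 CPM per kb. Sod2 had the lowest level, with a median of 29.7 CPM per kb over its 10008 annotated exon bases. These bases join the exons of all annotated transcripts of a gene, so the order of genes depends on which transcripts are annotated. Gpx3 alone took between 1.57% and 3.41% of all counts of a library. Total counts were 16621944 to 27778797 per library, and no pair of mice within a group agreed within sampling noise. Among NR-treated Alport males, replicates 1 and 3 stood apart from 2 and 4 in proximal tubule and erythroid markers, and replicate 1 from the rest in myeloid, fibroblast and injured tubule markers, as given with that group. Col4a3 was lower in vehicle-treated Alport mice, with log2 fold changes of -1.40 in males (SE 0.136, adjusted p 6e-06) and -1.19 in females (SE 0.108, adjusted p 2.87e-05), in the direction of the genotype labels. Differences are log2 fold changes from edgeR's quasi-likelihood F test in the 8 mice of the 2 groups compared. The test gives no standard error, so the SE was derived as the absolute log2 fold change over the square root of F. A gene is said to have passed the test, or to have risen or fallen, at a Benjamini-Hochberg adjusted p under 0.05 over all genes tested.

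**Figure D1:**
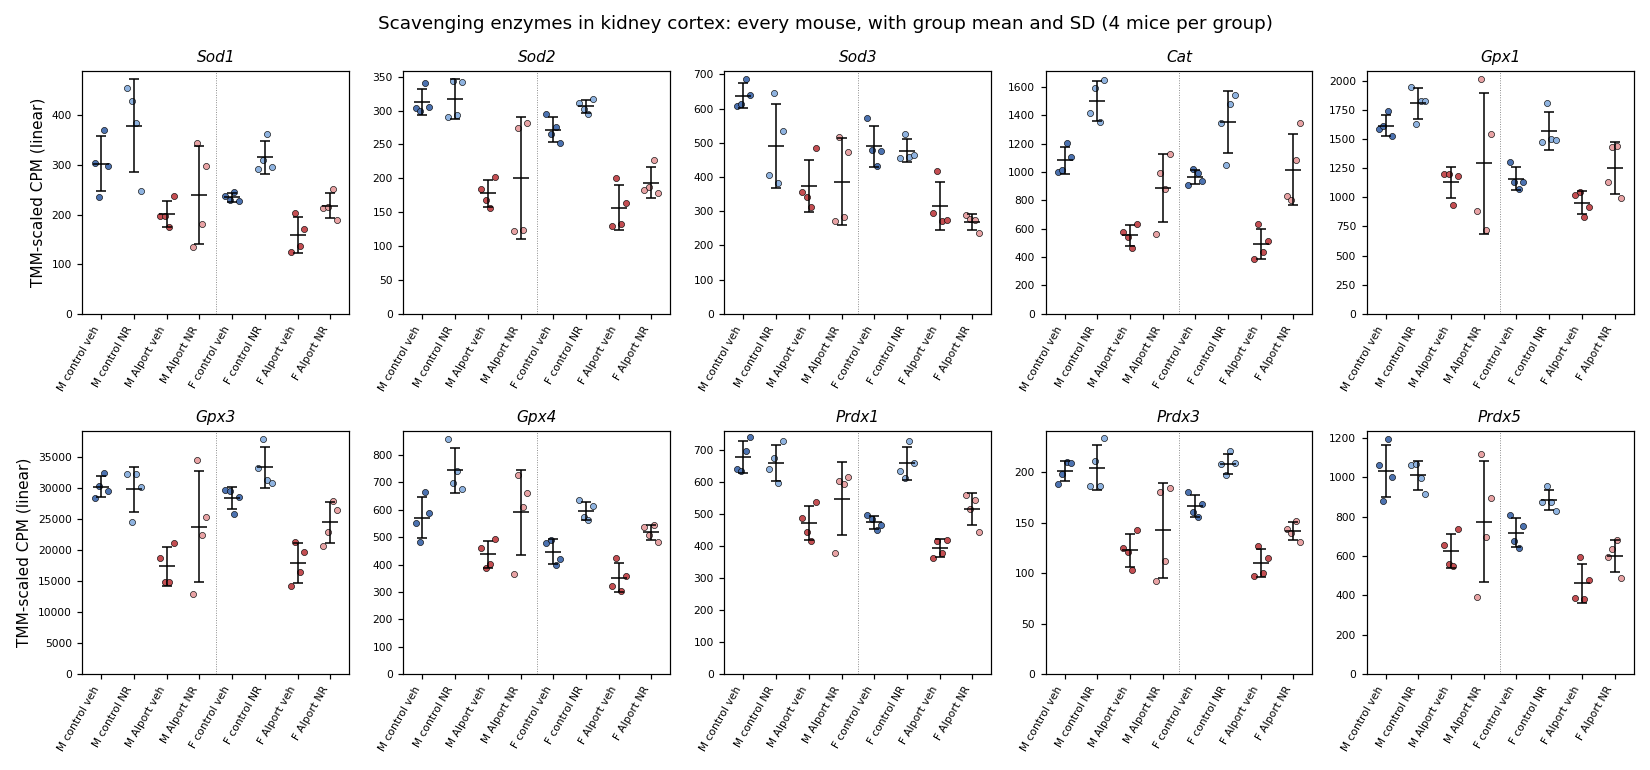
TMM-scaled CPM (linear axis from 0) of the 10 scavenging enzyme genes in each of the 32 mice, by sex (M, F), genotype and treatment (veh, vehicle), with bars for the group mean and SD of 4 mice. Vehicle-treated Alport mice lie low in both sexes, and the NR-treated Alport males are widely spread, as for Gpx3 between 12878 and 34494 CPM.

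Vehicle-treated Alport mice had less RNA of the scavenging enzymes than vehicle-treated control mice in both sexes. In males all 10 genes fell, where 24.0% of the 15286 genes tested fell. In females 8 of 10 fell, where 21.8% of 15709 genes fell, and Gpx1 and Gpx4 did not pass. The median log2 fold change of the 10 genes was -0.64 in males and -0.58 in females, beside medians over all genes of -0.0013 and -0.00083. Each of the 4 Alport mice lay below each of the 4 control mice for 8 of 10 genes in males and 9 of 10 in females, an arrangement found for 27.9% and 23.6% of all genes tested. In bulk cortex, fewer cells of a type and less RNA per cell cannot be told apart.

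Cat, the peroxisomal enzyme, had the largest difference of the 10 genes in both sexes. The 4 vehicle-treated control males had 1002, 1014, 1203 and 1107 CPM, and the 4 Alport males 575, 540, 463 and 636 CPM. In females the control mice had 908, 1018, 992 and 935 CPM and the Alport mice 384, 631, 439 and 511 CPM. The groups were apart in both sexes, the highest Alport mouse lying below the lowest control mouse. Cat fell by 0.89 in males (SE 0.119, adjusted p 4.66e-05) and by 0.93 in females (SE 0.145, adjusted p 0.000444) on the log2 scale.

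The 3 superoxide dismutases fell in both sexes. Sod2 was measured at 304, 300, 341 and 305 CPM in vehicle-treated control males and at 185, 168, 156 and 202 CPM in Alport males. In females it was at 295, 265, 276 and 252 CPM in controls and at 129, 201, 133 and 164 CPM in Alport mice. The Alport mice of each sex were all below their controls, and the difference was -0.73 (SE 0.095, adjusted p 3.54e-05) in males and -0.76 (SE 0.134, adjusted p 0.00101) in females. Sod3, the secreted form, stood at 608 to 688 CPM in control males against 313 to 484 CPM in Alport males, and at 431 to 573 CPM in control females against 272 to 418 CPM in Alport females. Its groups were also apart, with differences of -0.69 (SE 0.129, adjusted p 0.00063) and -0.60 (SE 0.146, adjusted p 0.0064). Sod1 was at 304, 236, 371 and 299 CPM in control males and at 198, 197, 175 and 238 CPM in Alport males. The lowest control male lay just under the highest Alport male, so these groups overlapped by 1 mouse each. In females Sod1 was at 227 to 245 CPM in controls and at 124 to 203 CPM in Alport mice, which did not overlap. The differences of Sod1 were -0.50 in males (SE 0.132, adjusted p 0.00665) and -0.52 in females (SE 0.139, adjusted p 0.0103). Its copper chaperone Ccs fell too, by 0.66 in males (adjusted p 4.17e-05) and by 0.70 in females (adjusted p 0.0017).

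Among the glutathione peroxidases, the secreted form differed most. Gpx3 was at 28446, 30332, 32434 and 29572 CPM in vehicle-treated control males and at 18680, 14787, 14801 and 21121 CPM in Alport males. Control females had 29679, 29536, 25805 and 28595 CPM, and Alport females 14180, 21268, 16433 and 19687 CPM. Every Alport mouse was below every control mouse of its sex, and Gpx3 fell by 0.72 in males (SE 0.163, adjusted p 0.00247) and by 0.63 in females (SE 0.165, adjusted p 0.00942). Gpx1 had 1528 to 1740 CPM in control males and 931 to 1202 CPM in Alport males, a fall of 0.44 (SE 0.116, adjusted p 0.00685). In females its values of 1072 to 1303 CPM in controls and 829 to 1043 CPM in Alport mice did not overlap, but the difference of -0.25 did not pass (SE 0.109, adjusted p 0.088). Gpx4, the lipid hydroperoxide enzyme, was close to the threshold in both sexes, at -0.31 in males (SE 0.119, adjusted p 0.0464) and -0.30 in females (SE 0.118, adjusted p 0.0554). Its groups overlapped in both sexes, with control males at 484 to 664 CPM, Alport males at 389 to 495 CPM, control females at 397 to 490 CPM and Alport females at 305 to 425 CPM. The call of Gpx4 in males was lost when any of 6 of the 8 mice was left out (adjusted p 0.0655 to 0.137 in those fits), and in females it was gained without control mouse 3 (adjusted p 0.0468) or Alport mouse 2 (adjusted p 0.00425), as Gpx1 was without Alport mouse 2 (adjusted p 0.026).

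The 3 peroxiredoxins fell in both sexes. Prdx3 was at 189, 198, 210 and 209 CPM in vehicle-treated control males and at 125, 121, 103 and 143 CPM in Alport males. Control females had 181, 161, 156 and 169 CPM and Alport females 97.5, 127, 100 and 115 CPM. Both pairs of groups were apart, with differences of -0.63 (SE 0.0968, adjusted p 0.000135) and -0.56 (SE 0.0932, adjusted p 0.00067). Prdx5 was at 877 to 1193 CPM in control males against 551 to 737 CPM in Alport males, and at 641 to 807 CPM in control females against 382 to 597 CPM in Alport females. It fell by 0.64 (SE 0.13, adjusted p 0.00109) and by 0.60 (SE 0.149, adjusted p 0.00654). Prdx1 was at 632 to 739 CPM in control males and at 415 to 538 CPM in Alport males, a fall of 0.44 (SE 0.108, adjusted p 0.00397). In females it was at 448 to 496 CPM in controls and at 362 to 418 CPM in Alport mice, and fell by 0.23 (SE 0.0843, adjusted p 0.0461). That call in females was lost when any of 7 of the 8 mice was left out, with adjusted p-values of 0.0175 to 0.116 over the 8 fits. Whether 1 member fell more than another was not tested.

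**Figure D2:**
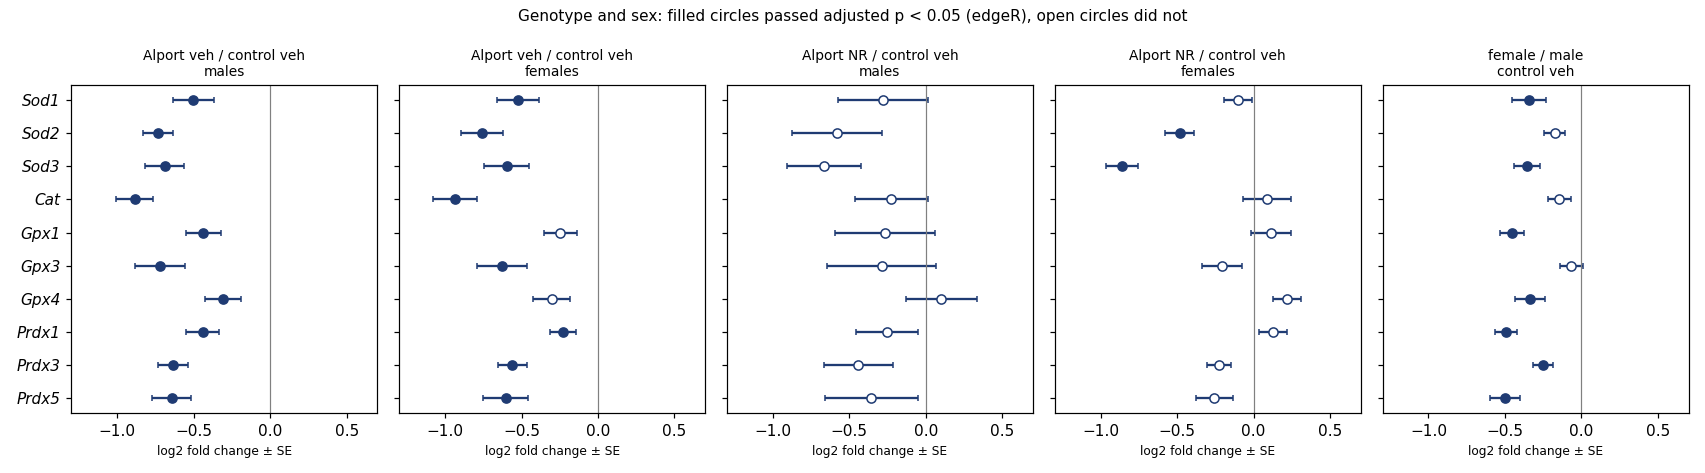
Log2 fold changes with SE (horizontal axis) of the 10 genes in 5 comparisons of 4 against 4 mice, where filled circles passed an adjusted p of 0.05 and open circles did not. All points lie below 0 in the first, second and last panel, and among the NR-treated Alport females only Sod2 and Sod3 are filled.

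The genes that supply these enzymes were read from lists of companions. Over all genes tested, 24.0% fell in Alport males and 21.8% in Alport females, as given above. The share that rose is not given here, for these lists or for the cell type markers below. Of 18 peroxisome genes, 16 fell in Alport males and 18 in Alport females, and none rose. Pxmp2, a channel of the peroxisomal membrane, fell in males and females (-0.9996 and -1.12), as did the fatty acid transporter Abcd3 (-0.73 and -0.76). Pex5, the receptor that carries catalase and other enzymes into peroxisomes, fell by 0.43 (adjusted p 0.000457) and by 0.37 (adjusted p 0.00314). Pex7, the other import receptor, fell by 0.64 and 0.52.

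Of 12 genes for glutathione and its reduction, 6 fell and 1 rose in males, and 7 fell and 0 rose in females. The largest falls shared by the sexes were those of Nnt (-0.86 and -0.75), named for nicotinamide nucleotide transhydrogenase, Ggt1 (-0.85 and -0.75), which takes glutathione apart at the cell surface, and the mitochondrial NADPH source Idh2 (-0.85 and -0.74). Whether Nnt yields a working enzyme in these C57BL/6J mice was not tested. Slc25a39, the mitochondrial glutathione carrier, fell by 0.57 and 0.48. Glutathione reductase, Gsr, fell in females (-0.21, adjusted p 0.0445) and was at -0.14 in males (adjusted p 0.287). Of 9 selenoprotein supply genes, 4 fell in each sex and 1 rose in males, Lrp8, a receptor for Selenop (1.42, adjusted p 0.000636), which was named after its value was seen. The falls were led by Sephs2 (-1.09 and -0.96), which makes the selenium donor, and Sepsecs (-0.76 and -0.70), which makes selenocysteine on its tRNA. Scly, which recovers selenium, fell by 0.39 and 0.30, and Secisbp2, which binds selenoprotein messages, by 0.24 and 0.22. Selenop, the selenium carrier listed as Sepp1 in the table, was at -0.03 (adjusted p 0.902) and -0.24 (adjusted p 0.065).

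Of 14 thioredoxin and glutaredoxin partners, 4 fell and 1 rose in males, and 7 fell and 2 rose in females. These counts stand beside 24.0% and 21.8% of all genes that fell and were not tested against those shares. Mitochondrial thioredoxin, Txn2, which serves Prdx3 and Prdx5, fell by 0.42 (adjusted p 0.0029) and by 0.53 (adjusted p 0.001). Cytosolic Txn1 was at -0.0029 (adjusted p 0.985) and -0.02 (adjusted p 0.847), and sulfiredoxin, Srxn1, which repairs overoxidized peroxiredoxins, was at 0.09 (adjusted p 0.415) and 0.07 (adjusted p 0.663). The thioredoxin reductases Txnrd1 and Txnrd2 fell in females, at -0.38 (adjusted p 0.00519) and -0.35 (adjusted p 0.0102), and were at -0.14 (adjusted p 0.238) and -0.24 (adjusted p 0.0519) in males. The glutaredoxins Glrx (-0.41 and -0.26) and Glrx2 (-0.30 and -0.36) fell in both sexes, and the stress-induced sestrin Sesn3 rose (0.45 and 0.27).

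Other peroxidases and the sources of superoxide and peroxide moved both ways. Gpx7 rose by 2.37 in males and 1.47 in females, and Gpx8 by 0.85 and 0.55. Both act in the endoplasmic reticulum. The secreted peroxidasin Pxdn, which crosslinks collagen IV, rose by 1.72 and 1.60, while Gpx6 fell by 1.02 and 1.06. Of the 8 tested genes of that list 3 rose and 3 fell in each sex. The phagocyte NADPH oxidase subunits Cybb (2.92 and 2.27), Ncf4 (2.90 and 2.39) and Ncf1 (2.47 and 1.79) rose. In all, 6 of 16 tested source genes rose and 7 fell in males, and 4 rose and 8 fell in females, without a share of all genes that rose to set beside them. Of 8 regulators, 5 fell in males and 2 in females, with Ppara (-0.94 and -1.14) and Ppargc1a (-0.66 and -0.66), regulators of fatty acid oxidation and of mitochondrial genes, falling in both.

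Markers of cell types moved in the same mice. All 12 proximal tubule markers fell in each sex, with a median log2 fold change of -1.09 in males and -0.93 in females, and their summed level ranged over 22367 to 24881 CPM in control males, 7947 to 12893 CPM in Alport males, 18911 to 23201 CPM in control females and 8237 to 13468 CPM in Alport females. The first 2 of the list, the phosphate carrier Slc34a1 and the glucose carrier Slc5a2, were above 0 in every mouse. Of 9 distal nephron markers, 6 fell in males (median -0.59) and 5 in females (median -0.43), and none rose. All 12 myeloid and lymphoid markers rose in males and 10 of 12 in females, and 9 of 9 fibroblast markers rose in each sex. All 6 markers of injured tubule rose in each sex, with summed levels of 523 to 663 CPM in control males and 6107 to 7439 CPM in Alport males. Of 6 erythroid markers, which report red cell RNA left in the tissue, 6 fell in males and 5 in females. Podocyte markers rose in 6 and 5 of 6 cases and endothelial markers in 6 and 3 of 7, and 3 of 5 vascular smooth muscle markers rose in each sex. The part of these shifts in the lower levels of the scavenging enzymes was not tested. Adipocyte markers were at or near 0, with summed levels of at most 6.12 CPM.

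**Figure D3:**
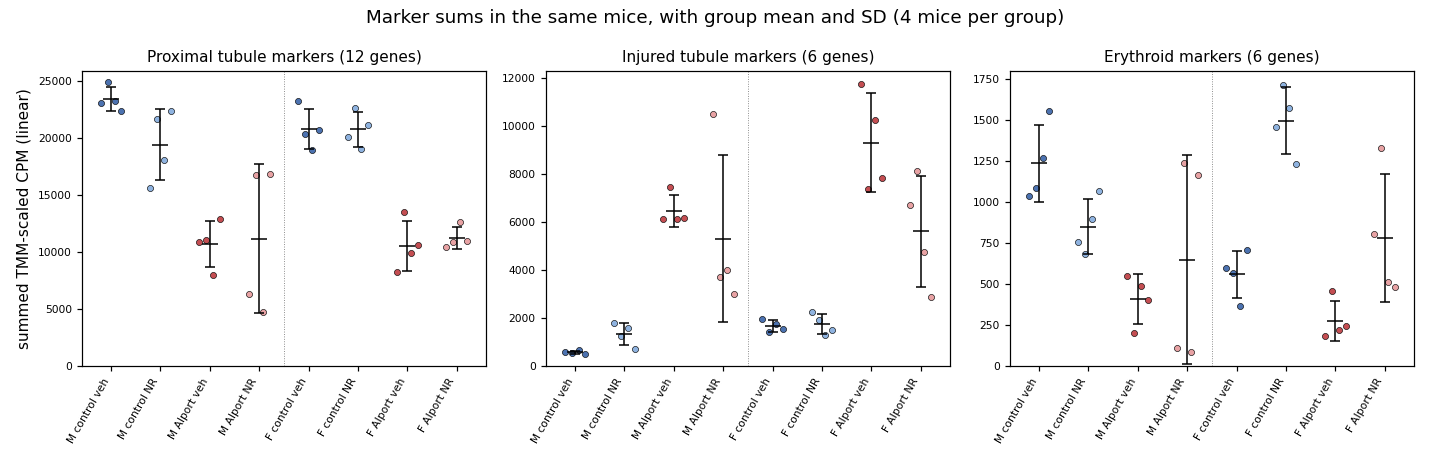
Summed TMM-scaled CPM (linear axes from 0) of 3 marker lists in each mouse, with bars for the group mean and SD of 4 mice. Proximal tubule markers are low in Alport mice, and erythroid markers are higher in all 4 NR-treated control females (1234 to 1717 CPM) than in the vehicle-treated ones (364 to 709 CPM).

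NR treatment of control mice was compared with vehicle within each sex. In females 7 of the 10 genes rose, where 4.00% of the 14951 genes tested rose, and in males only Cat rose, where 2.97% of 14696 genes rose. The median log2 fold change of the 10 was 0.37 in females and 0.03 in males, beside -0.0091 and -0.00022 over all genes. In females each NR-treated mouse lay above each vehicle-treated mouse for 9 of 10 genes (8.05% of all genes), and in males for 2 of 10, Cat and Gpx4 (7.37% of all genes). No gene of the 10 fell in either sex. The vehicle-treated control females used here also enter the comparison of the sexes given below.

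Prdx1 had the smallest adjusted p of the 10 in NR-treated control females. The vehicle-treated females had 496, 482, 448 and 466 CPM and the NR-treated ones 632, 611, 728 and 659 CPM, with no overlap. It rose by 0.47 (SE 0.0727, adjusted p 0.00307). In males Prdx1 was at 639, 632, 697 and 739 CPM with vehicle and at 639, 675, 595 and 727 CPM with NR, intermixed, with a difference of -0.03 (SE 0.0967, adjusted p 0.886). The NR-treated females had a mean of 657 CPM, beside 677 CPM in vehicle-treated and 659 CPM in NR-treated control males.

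Cat was the gene that rose in control mice of both sexes. NR-treated control males had 1415, 1593, 1356 and 1651 CPM, all above the 1002 to 1203 CPM of the vehicle-treated ones. The NR-treated control females had 1344, 1052, 1481 and 1543 CPM, all above the 908 to 1018 CPM of theirs, though replicate 2 only just. The rise was 0.48 in males (SE 0.105, adjusted p 0.0304) and 0.49 in females (SE 0.106, adjusted p 0.0183). The call in males was lost when any of 5 of the 8 mice was left out (adjusted p 0.0515 to 0.113 in those fits), and in females without NR-treated mouse 3 (adjusted p 0.059) or 4 (adjusted p 0.0522). Pex5, the import receptor, was at 0.06 in females (adjusted p 0.692) and -0.01 in males (adjusted p 0.926).

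The other genes that rose in NR-treated control females were Sod1, Gpx1, Gpx4, Prdx3 and Prdx5. Sod1 went from 238, 229, 245 and 227 CPM with vehicle to 291, 310, 363 and 297 CPM with NR (0.42, SE 0.0769, adjusted p 0.00866). Gpx1 was at 1072 to 1303 CPM with vehicle and 1472 to 1812 CPM with NR (0.43, SE 0.0853, adjusted p 0.0115). Gpx4 was at 397 to 490 CPM with vehicle and 564 to 636 CPM with NR (0.42, SE 0.0771, adjusted p 0.00904). Each of these 3 pairs of groups was apart. Prdx3 was at 156 to 181 CPM with vehicle and 197 to 221 CPM with NR (0.32, SE 0.0655, adjusted p 0.0128). Prdx5 was at 641 to 807 CPM with vehicle and 830 to 954 CPM with NR (0.29, SE 0.0804, adjusted p 0.0435). The call of Prdx5 was lost when any of 7 of the 8 mice was left out (adjusted p 0.0589 to 0.119 in those fits). Sod2 was at 0.17 (adjusted p 0.125), Gpx3 at 0.23 (adjusted p 0.183) and Sod3 at -0.04 (adjusted p 0.806). In 1 fit of all 32 mice, in which the groups share 1 estimate of the spread, 0 of the 10 genes passed in control females and 0 in control males, with 20 and 931 of all genes called.

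In control males the genes other than Cat did not pass. Gpx4 had the second largest difference, with NR-treated males at 860, 699, 743 and 676 CPM, all above the vehicle-treated males at 551, 484, 664 and 589 CPM (0.39, SE 0.125, adjusted p 0.0952). Sod3 was lower in 3 of the 4 NR-treated males, at 405, 646, 382 and 534 CPM against 608 to 688 CPM, a difference that did not pass (-0.37, SE 0.152, adjusted p 0.183). It passed without NR-treated mouse 2 (-0.53, adjusted p 0.0356), and without NR-treated mouse 4 Sod1 (0.51, adjusted p 0.0394) and Gpx4 (adjusted p 0.0439) passed. The remaining genes had differences between -0.03 and 0.34.

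**Figure D4:**
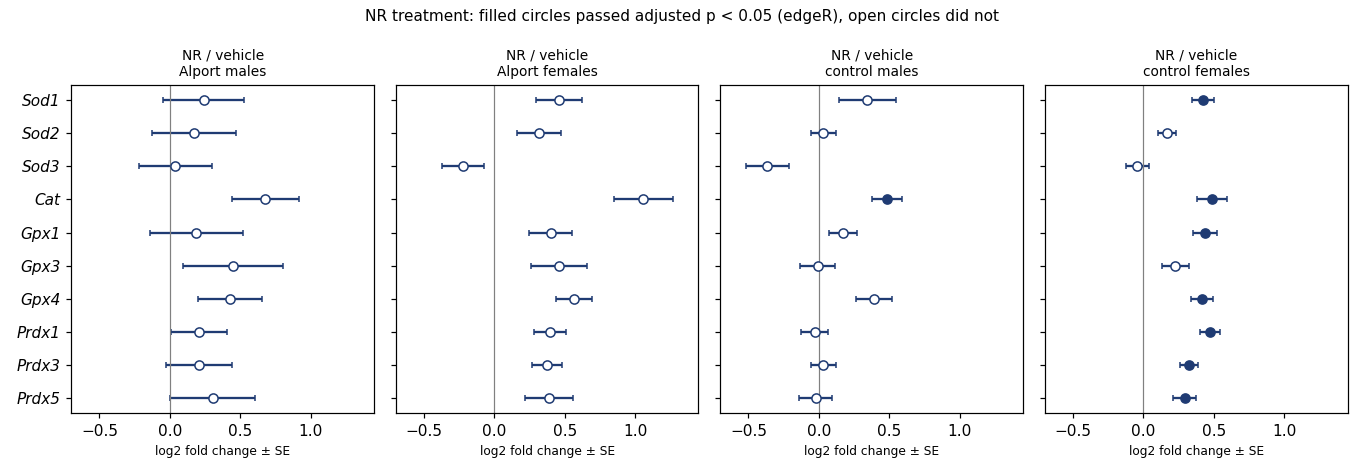
Log2 fold changes with SE (horizontal axis) of NR against vehicle for the 10 genes, 4 against 4 mice in each panel, where filled circles passed an adjusted p of 0.05 and open circles did not. Cat has the largest value in each panel, and the standard errors are widest in Alport males, between 0.201 and 0.356.

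Of the companions in NR-treated control mice, 3 of 14 thioredoxin and glutaredoxin partners rose in females, and 1 rose in males. Over all genes tested, 4.00% rose in females and 2.97% in males. Txn1 rose by 0.58 in females (adjusted p 0.0167) and was at 0.36 in males (adjusted p 0.19), Txn2 rose by 0.29 in females (adjusted p 0.0212), and Txnrd1 rose by 0.55 in males (adjusted p 0.031) and was at 0.18 in females (adjusted p 0.393). Of the 12 glutathione genes 5 rose in females and 0 in males. They included Idh1, a cytosolic NADPH source (0.39, adjusted p 0.0187), and Gsr (0.34, adjusted p 0.0187), whose values in males were 0.42 (adjusted p 0.092) and 0.52 (adjusted p 0.101). Prdx2, a peroxiredoxin abundant in red cells, rose in females by 0.25 (adjusted p 0.0219). Selenop fell in males by 0.75 (adjusted p 0.0454) and was at 0.07 in females (adjusted p 0.613). Of the 16 source genes 4 rose in females and 1 in males. Maob, a mitochondrial amine oxidase, rose in females by 0.67 (adjusted p 0.0485) and Cybb in males by 0.88 (adjusted p 0.0194). Pex11a, which drives peroxisome division, rose in males by 0.72 (adjusted p 0.00844), Pxmp4 in females by 0.38 (adjusted p 0.0148), and Ppara fell in females by 0.45 (adjusted p 0.00792). No other gene of the peroxisome or regulator lists passed in these 2 comparisons.

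Other cells moved with NR treatment in control mice. In females 5 of 6 erythroid markers rose, with a median log2 fold change of 1.41 and summed levels of 1234 to 1717 CPM against 364 to 709 CPM, with no overlap. Red cells hold catalase, Sod1, Gpx1 and Prdx2, and the part of red cell RNA in the rise of these genes was not tested. In males the erythroid median was -0.51 with 0 of 6 passing, and the sums were 687 to 1067 CPM with NR against 1037 to 1557 CPM. There, 6 of 7 endothelial, 4 of 9 fibroblast and 3 of 6 injured tubule markers rose. Proximal tubule sums were 19053 to 22670 CPM with NR against 18911 to 23201 CPM in females and 15652 to 22363 CPM against 22367 to 24881 CPM in males.

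**Figure D5:**
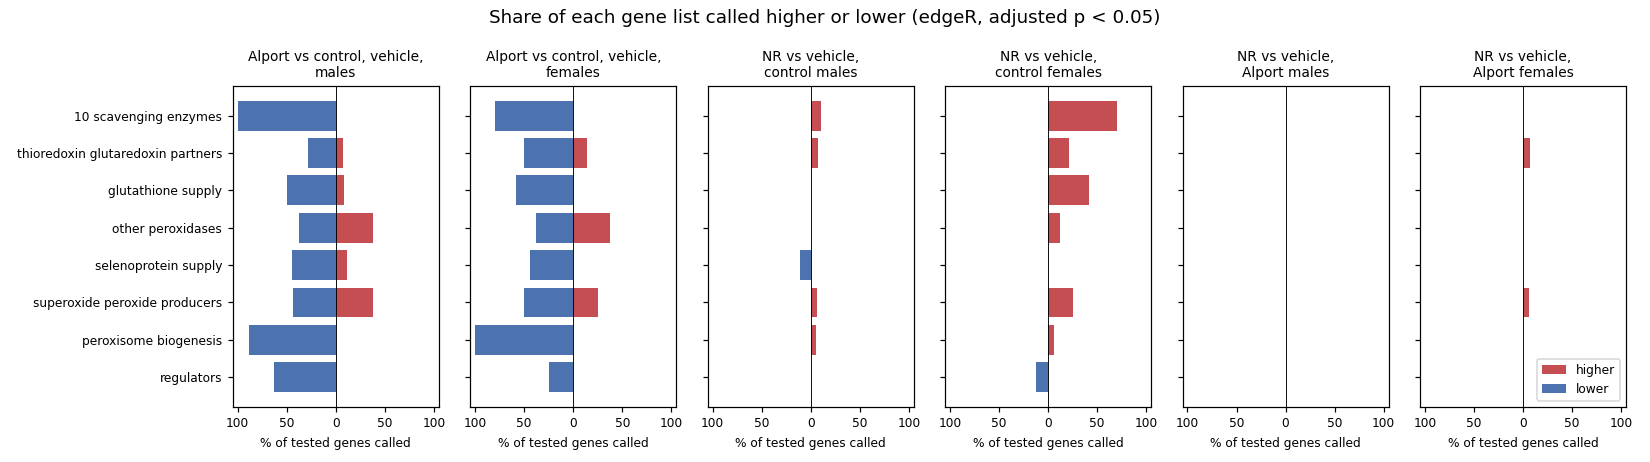
Percent of the tested genes of each list called higher (right) or lower (left) at an adjusted p under 0.05 in 6 comparisons of 4 against 4 mice. In vehicle-treated Alport mice the scavenging enzymes and the peroxisome genes lie almost wholly on the left, and in NR-treated control females 7 of the 10 enzymes are on the right.

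In Alport mice none of the 10 genes passed for NR against vehicle. In males 0 of 10 passed (1 at an unadjusted p under 0.05, and 0 by DESeq2, which called 62 genes in all). Over all genes in males, 0 of 15500 passed in either direction (777 at an unadjusted p under 0.05), a background of 0% higher. In females 0 of 10 passed (8 at an unadjusted p under 0.05), where 0.382% of 15712 genes rose. Over all genes in females, 2590 of 15712 were at an unadjusted p under 0.05 in either direction. With DESeq2, which called 728 genes in all there, Cat, Gpx4, Prdx1 and Prdx3 passed in females. The median log2 fold change of the 10 was 0.22 in males and 0.40 in females, beside 0.01 and 0.00049 over all genes. These comparisons use the vehicle-treated Alport mice that also enter the comparison with controls, so the directions of the pair are not independent.

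In Alport females Cat was at 833, 805, 1083 and 1345 CPM with NR and at 384, 631, 439 and 511 CPM with vehicle. The NR-treated females were all above the vehicle-treated ones, by 1.06 on the log2 scale, but the difference did not pass (SE 0.213, adjusted p 0.0771). It passed without vehicle-treated mouse 2 (adjusted p 0.0498), with no low-count filter (adjusted p 0.046) and in 1 fit of all 32 mice (adjusted p 0.00242). Gpx4 was at 537, 507, 544 and 483 CPM with NR against 320, 425, 305 and 359 CPM, apart as well, with a difference of 0.56 (SE 0.127, adjusted p 0.104), which passed without vehicle-treated mouse 2 (0.67, adjusted p 0.0363). Prdx1 (443 to 558 against 362 to 418 CPM, difference 0.40, adjusted p 0.153) and Prdx3 (131 to 152 against 97.5 to 127 CPM, difference 0.37, adjusted p 0.155) were the other genes whose groups were apart, 4 of 10 in all, where 5.15% of all genes were apart in that direction. Sod3 was the only gene of the 10 with a negative difference, at 235 to 289 CPM with NR against 272 to 418 CPM (-0.22, SE 0.151, adjusted p 0.469). Of the companions, Glrx rose by 0.73 (adjusted p 0.0189), as did Maoa, a mitochondrial amine oxidase, by 0.76 (adjusted p 0.0226). Txnrd1 (1.06, adjusted p 0.166), Srxn1 (0.98, adjusted p 0.15) and Gsr (1.01, adjusted p 0.148) did not pass. Erythroid sums were 483 to 1329 CPM with NR and 186 to 456 CPM with vehicle, and proximal tubule sums 10464 to 12595 CPM and 8237 to 13468 CPM.

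NR-treated Alport males differed widely among themselves. Gpx3 was at 12878, 34494, 22353 and 25356 CPM, Gpx1 at 880, 2020, 719 and 1547 CPM, and Sod2 at 122, 275, 124 and 282 CPM in replicates 1 to 4. Replicates 1 and 3 were the lowest pair for these and for the other members of the 10, and the proximal tubule markers were lowest in the same pair, with sums of 6339, 16773, 4767 and 16829 CPM. The erythroid sums were 111, 1237, 83.9 and 1166 CPM, and the part of these markers in the spread was not tested. Cat, at 563, 993, 877 and 1127 CPM, was above the vehicle-treated range of 463 to 636 CPM in 3 of the 4 mice, with a difference of 0.68 (SE 0.238, adjusted p 0.917). Replicate 1 alone was high in myeloid and lymphoid markers (2086 CPM against 651 to 850 CPM in the other mice), fibroblast markers (1932 CPM against 408 to 643 CPM) and injured tubule markers (10494 CPM against 3017 to 4011 CPM). Without NR-treated replicate 1, Cat passed (0.84, adjusted p 0.0466), with 374 genes called in all.

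NR-treated Alport mice were also set beside vehicle-treated control mice, which differ from them in genotype and diet. In females Sod2 and Sod3 were lower and passed, where 11.4% of 15381 genes fell. Sod2 was at 183, 187, 227 and 178 CPM against 252 to 295 CPM (-0.48, SE 0.0961, adjusted p 0.00581, and 0.0597 in the fit of all 32 mice), and Sod3 at 289, 277, 273 and 235 CPM against 431 to 573 CPM (-0.86, SE 0.105, adjusted p 0.000545). All NR-treated Alport females were below all vehicle-treated control females for both and for Prdx3, 3 of the 10 genes. Cat was at 0.09 (SE 0.157, adjusted p 0.737), Gpx1 at 0.11 (adjusted p 0.569), Gpx4 at 0.22 (adjusted p 0.114) and Prdx1 at 0.13 (adjusted p 0.342), while Sod1, Gpx3, Prdx3 and Prdx5 were between -0.26 and -0.10. Gpx4 passed without Alport mouse 4 (adjusted p 0.0403) and Prdx3 without Alport mouse 3 (-0.27, adjusted p 0.048). In males 0 of 10 genes passed, where 6.75% of 15077 genes fell. At an unadjusted p under 0.05 were 1 of the 10 and 5550 of all 15077 genes in either direction. DESeq2 called Sod3 of the 10, with 4511 genes called in all. The differences in males were -0.67 for Sod3 (adjusted p 0.0764, and 0.0342 without Alport replicate 2), -0.58 for Sod2 (adjusted p 0.18) and between -0.44 and 0.10 for the others, with standard errors of 0.2 to 0.358. Each NR-treated Alport male lay below each vehicle-treated control male for Sod2, Sod3, Prdx1 and Prdx3, 4 of the 10 genes. The share of all genes with such an arrangement is not given here for either sex. A p above the threshold does not show that these levels were those of control mice. Cell type markers differed between the same groups. In females 10 of 12 proximal tubule markers were lower, and 7 of 9 fibroblast, 4 of 12 myeloid and lymphoid and 6 of 6 injured tubule markers were higher. In males 3 of 12 proximal tubule markers were lower, and 7 of 9 fibroblast, 8 of 11 myeloid and lymphoid and 6 of 6 injured tubule markers were higher. Their part in the differences was not tested.

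The companions in NR-treated Alport mice against vehicle-treated controls moved both ways. In females Txn1 was higher (0.41, adjusted p 0.0183) and Txn2 lower (-0.28, adjusted p 0.0458), and Srxn1 was higher (1.003, adjusted p 0.0399, with 1.51 and adjusted p 0.0879 in males). G6pdx, the entry enzyme of the NADPH-making pentose phosphate pathway, was higher in both sexes (1.04, adjusted p 0.0429 in males and 0.95, adjusted p 0.00799 in females), as were Cybb (2.57 and 1.55), Maoa (2.05 and 0.85) and Pxdn (1.26 and 1.15). Hao2, a peroxisomal oxidase (-1.86 and -1.94), Sepsecs (-0.81 and -0.59), Pex7 (-0.66 and -0.48), Ppara (-0.87 and -1.03) and Ppargc1a (-0.52 and -0.42) were lower in both. Ggt1 (-1.05, adjusted p 0.0676 and -0.70, adjusted p 0.00151) and Pxmp2 (-0.91, adjusted p 0.0758 and -1.04, adjusted p 0.000506) fell in females only by the test, and Gpx7 (1.78, adjusted p 0.0243 and 0.81, adjusted p 0.129) and Lrp8 (2.99, adjusted p 0.0194 and 0.46, adjusted p 0.444) rose in males only by the test, with the differences between sexes not tested here. Glrx rose in females (0.43, adjusted p 0.0254). Ccs was lower in females (-0.39, adjusted p 0.00538), as was Selenop (-0.43, adjusted p 0.0285).

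Vehicle-treated control females had less RNA of 7 of the 10 genes than vehicle-treated control males, where 15.8% of 14990 genes were lower in females. The same vehicle-treated females are the baseline for NR in control females, so the 2 comparisons are not independent. Sod1, Gpx1, Gpx4, Prdx1, Prdx3 and Prdx5 passed in both, lower against males and higher with NR. Prdx1 was at 448 to 496 CPM in females and 632 to 739 CPM in males (-0.49, SE 0.0715, adjusted p 0.00019), and Gpx1 at 1072 to 1303 CPM and 1528 to 1740 CPM (-0.45, SE 0.0767, adjusted p 0.000604). Both were apart, as were 6 of the 10 genes in all, where 17.8% of all genes were apart in that direction. Prdx5 (-0.50, adjusted p 0.00184), Sod3 (-0.36, adjusted p 0.00577), Prdx3 (-0.25, adjusted p 0.0105), Gpx4 (-0.33, adjusted p 0.0194) and Sod1 (-0.34, adjusted p 0.0311) were the others that passed. The calls of Sod1 and Gpx4 were lost when any of 6 and any of 4 of the 8 mice were left out, with adjusted p-values up to 0.073 and 0.0574, and Sod2 passed without female mouse 1 (adjusted p 0.0406). Sod2 (-0.18, adjusted p 0.0705), Cat (-0.14, adjusted p 0.177) and Gpx3 (-0.07, adjusted p 0.546) did not pass. In the fit of all 32 mice only Prdx1 of the 10 passed, with 2795 of all genes called. Among the companions, Selenop was lower in females (-1.56, adjusted p 6.32e-07), as were Txn1 (-0.41, adjusted p 0.00627) and Gsr (-0.27, adjusted p 0.0222). Erythroid markers were lower in females in 5 of 6 cases and podocyte markers higher in 6 of 6. Fibroblast markers were higher in 6 of 9 cases, vascular smooth muscle markers in 4 of 5 and endothelial markers in 4 of 7. So were 4 of 9 distal nephron, 3 of 6 injured tubule and 2 of 10 tested myeloid and lymphoid markers. Of 12 proximal tubule markers 3 were lower and 1 higher. The part of these markers in the differences was not tested.

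Tests of the differences between effects called none of the 10 genes. No sex difference in the genotype effect passed, with interactions of -0.07 to 0.18 and adjusted p-values of 0.683 or more. Over all 16152 genes, 0.254% were called with a change of at least 2-fold. At an unadjusted p under 0.05 were 0 of the 10 and 1910 of the 16152 genes, and DESeq2 called 0 of the 10. The interaction of NR and genotype was called for 0 genes in males (1395 of 15800 at an unadjusted p under 0.05) and 0 in females (1484 of 16064), a background of 0% in each. By the unadjusted p, 0 and 1 of the 10 passed and by DESeq2 none. The larger NR difference of Cat in Alport than in control females (1.06 and 0.49) corresponded to an interaction of 0.55 (SE 0.243, adjusted p 0.519). The interaction of NR and sex was called for 0% of 16189 genes in Alport mice (361 at an unadjusted p under 0.05, 0 of the 10, and none of the 10 by DESeq2). In control mice 0.624% of 15379 genes were called and 0 of the 10 genes. At an unadjusted p under 0.05 were 4 of the 10 and 2398 of the 15379 genes. There Prdx1, which rose in females and not in males, had an interaction of 0.51 (SE 0.117, adjusted p 0.0512), just above the threshold. It passed with DESeq2 (adjusted p 0.00109) and with limma-voom (adjusted p 0.0471), and without NR-treated male 2 (adjusted p 0.0368) or 4 (adjusted p 0.0162).

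The order of the 8 group means differed between genes. For Cat it ran from NR-treated control males and females (1504 and 1355 CPM) through vehicle-treated control males (1082 CPM), NR-treated Alport females (1016 CPM), vehicle-treated control females (963 CPM) and NR-treated Alport males (890 CPM) to vehicle-treated Alport males and females (553 and 491 CPM). Each neighbour in that order overlapped with the next. For Sod3 the NR-treated Alport females came last (268 CPM), after vehicle-treated Alport females (315 CPM). Over the 10 genes, neighbouring groups were apart only for Sod2 between NR-treated control females, in the third place, and the group below, for Gpx4 below NR-treated control males, and for Prdx3 below vehicle-treated control males.

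Promoters were examined for the core of the antioxidant response element, the site of the factor NRF2 (Nfe2l2), because Nfe2l2 is the textbook regulator of several of these enzymes. RefSeq promoters of GRCm38.p6, running from 250 bases before to 50 bases after a start, matched 9 of the 10 genes with 12 promoters, and the gene without one was Sod3. The core, spelled TGACNNNGC and searched on both strands, occurred in the promoters of Sod1 and Prdx1, and in 12.4% of all 32851 promoters. The windows are shown 5′ to 3′ on the strand of the gene, with the match in capitals.
Sod1 promoter: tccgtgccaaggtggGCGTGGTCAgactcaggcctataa
Prdx1 promoter: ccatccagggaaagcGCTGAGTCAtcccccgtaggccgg
The Sod1 window is chr16:90220691-90220729 on the plus strand and the Prdx1 window chr4:116685451-116685489 on the plus strand, and in both the match lies on the minus strand of the gene. The match starts 56 bases before the start of Sod1 and 133 bases before that of Prdx1. The DR1 element bound by PPARα, searched as its perfect consensus on both strands, occurred in none of the 12 and in 0.0396% of all promoters. A match is a description of letters and says nothing of binding. The counts measure RNA only, and not the protein or the binding of a factor.

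For each gene, up to 3 genes with the most similar pattern over the 32 mice were named by the root mean square (RMS) difference of mean-centred log2 CPM, among 16469 genes that passed the filter. The mice share sex, genotype and treatment groups, so many genes share such patterns, and the values are a description without a test. Prdx3 had the closest neighbours, Sdhc (RMS 0.0656), Atp5f1 (0.0806) and Uqcrc1 (0.0814), beside a median of 0.501 over all genes. Sod2 was nearest to Slc25a13 (0.0816), Bckdha (0.0915) and Atp5b (0.0919), and Gpx3 to Sdhd (0.141), Atp5a1 (0.145) and Ndufs3 (0.146). Cat was nearest to Entpd5 (0.155), Decr1 (0.202) and Mfsd4b1 (0.207), and its closest gene among the 10 was Prdx3 at 0.307, the largest such distance of the set. Cat also varied most about its own mean (RMS 0.58, beside 0.3 to 0.468 for the others), and the distances are not scaled to that spread. Sod1 was nearest to Ndufb9 (0.134), Etfb (0.14) and Atp5g3 (0.147), Sod3 to Acad9 (0.154) and Tmem189 (0.156), and Gpx1 to Pebp1 (0.153), Sec62 (0.165) and Ascc1 (0.169). Gpx4 was nearest to Guk1 (0.115), Txndc17 (0.134) and BC004004 (0.135), Prdx1 to Srp9 (0.115), Ugp2 (0.118) and Mmadhc (0.122), and Prdx5 to Slc25a39 (0.125), Mrpl12 (0.151) and Txn2 (0.154). Within the set, Sod2 and Prdx3 were nearest to each other (0.134), as were Gpx4 and Prdx1 (0.181) and Sod1 and Prdx5 (0.178).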

How the data were processed

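Kidney cortex RNA of 32 mice was isolated on spin columns, and a service provider made libraries from poly(A) RNA. The authors processed the reads with BioJupies, and the submitters' processing notes name the build mm10. The aligner, annotation and strand are not given in the sources used here. The authors deposited raw counts by gene symbol, and a second table of log10(CPM + 1), which differed from the same transform of the counts by at most 4.44e-16 and was not used further. The 10 genes and the companion and marker lists were chosen with earlier results of these data known.

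The counts were analysed with edgeR 4.0.16 in R 4.3.3 (robust quasi-likelihood F test, filterByExpr with a minimum count of 10, TMM factors of 0.828 to 1.25), with 1 fit for each pair of groups and for each interaction, over all genes. Benjamini-Hochberg adjustment was used with a threshold of 0.05, and a fold of at least 2 was also required where sex and genotype interacted. Deviations of same-numbered mice from their group means correlated by -0.183 to 0.297, with 6 of 36 pairs over 0.1, so a replicate block served only as an alternative. The others were DESeq2 1.42.0, limma-voom (limma 3.58.1), RLE size factors, no low-count filter, 1 fit of all 32 mice, a log2 fold limit of 0.5, leaving out each mouse and, added after seeing the data, no robust dispersion. The code was tested on simulated data.

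Named are the 10 genes, Col4a3, direct partners of the enzymes (Ccs, Txn1, Txn2, Txnrd1, Txnrd2, Srxn1, Gsr, Selenop and Pex5), up to 4 genes of each companion list that passed in the same direction in both sexes with the largest mean change (where fewer than 2 did, up to 2 that passed in 1 sex), the first 2 markers of a cell type list, and the 3 genes of nearest pattern. Some genes that this rule takes are not reported here. The paper states that treatment groups were balanced across litters, but the labels name no litters, so litter does not enter the fits. The p-values set a difference between groups against the spread between the mice of a group.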

Additional observations from a re-analysis of the deposited data

Results flagged for a closer look

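Of 80 sets of 4 mice (10 genes in 8 groups), 6 held a mouse whose distance from the nearest of the other 3 was over Dixon's 95% critical value as a share of the whole range, where chance flags about 1 in 20. Among vehicle-treated control males, replicate 3 was high for Sod2 at 341 CPM. Among NR-treated control females, replicate 2 was high for Sod3 at 527 CPM and for Gpx1 at 1812 CPM. Among vehicle-treated Alport females, replicate 2 was high for Sod3 at 418 CPM. Among vehicle-treated Alport males, replicate 3 was low for Gpx1 at 931 CPM, and among NR-treated Alport males, replicate 1 was low for Prdx1 at 377 CPM.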

How the results depend on the processing

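In vehicle-treated Alport against control mice all 10 genes passed in males and 7 to 10 in females under the 7 other fits that kept every mouse and set no fold limit, 7 and 7 with a log2 fold limit of 0.5, and 9 to 10 and 7 to 10 with 1 mouse left out. Those 7 fits called 7706 to 7989 of all genes in males and 5977 to 7504 in females. For the fold limit and for the fits with 1 mouse left out, the number of all genes called is not given in this section. The counts of the 10 genes under those settings, here and below, therefore have no background to be judged against. NR treatment was less settled, and the cause was not tested. For Alport females DESeq2 called 4 of the 10 genes (728 of all genes). The table without a low-count filter called 1, Cat (81 of all genes), and 1 fit of all 32 mice 1, Cat (240 of all genes). With 1 mouse left out, 0 to 2 were called, and for Alport males 0 to 1. For control males DESeq2 called 2 (1654 of all genes). The fit of all 32 mice (931 of all genes), the replicate block (413 of all genes) and a log2 fold limit of 0.5 called 0 each. With 1 mouse left out, 0 to 3 were called. For control females the fit of all 32 mice (20 of all genes) and the fold limit called 0 each, with 5 to 7 when 1 mouse was left out. NR-treated Alport against vehicle-treated control males gave 1 with DESeq2 (4511 of all genes), 4 in the fit of all 32 mice (6818 of all genes) and 0 to 1 with 1 mouse left out. Females gave 1, Sod3, in the fit of all 32 mice (3692 of all genes), 1 with the fold limit and 2 to 3 with 1 mouse left out. Female against male controls gave 1 in the fit of all 32 mice (2795 of all genes), 1 with the fold limit and 5 to 7 with 1 mouse left out. The interaction of NR and sex in controls gave 1 (Prdx1) with DESeq2, limma-voom and, added after seeing the data, without robust dispersion, and 0 to 2 with 1 mouse left out.

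With the replicate number as a block, 10 and 8 genes passed for genotype in males and females, beside 7706 and 7152 of all genes. For NR in control females 6 passed (406 of all genes). For NR-treated Alport females against controls 2 passed (2313 of all genes), for sex 6 (4395 of all genes), and 0 elsewhere. For genotype in females the block lost Prdx1 (adjusted p 0.0693) and gained Gpx4 (adjusted p 0.0286). It also lost Prdx5 for NR in control females (adjusted p 0.0958), Cat for NR in control males (adjusted p 0.0773) and Gpx4 for sex (adjusted p 0.0543). For genotype in females 3 of the 4 same-numbered pairs correlated over 0.1 (0.184, 0.188 and 0.101) and 1 did not (0.0158). The block reversed Sod3 for NR in Alport males (-0.004763). Leaving out 1 mouse reversed small differences that had not passed. For NR in Alport males the ranges were -0.0387 to 0.34 for Sod2, -0.14 to 0.19 for Sod3 and -0.12 to 0.39 for Gpx1. For NR in control males they were -0.0118 to 0.0733 for Sod2, -0.0569 to 0.0724 for Gpx3, -0.0671 to 0.0159 for Prdx1, -0.0264 to 0.0671 for Prdx3 and -0.10 to 0.0505 for Prdx5, and for NR in control females -0.0977 to 0.0414 for Sod3. For NR-treated Alport mice against controls they were -0.019 to 0.25 for Gpx4 in males and -0.056 to 0.21 for Cat in females.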
